A study of Mus musculus with 4 samples.

Results

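The 45 genes described here code for the glutathione, thioredoxin and NRF2 antioxidant systems of the mouse, and were taken from the 56350 genes of the deposited count table by their symbols. Of the 45, 41 had enough reads to be tested, and Gpx7, Gstm5, Gstp1 and Txnrd2 did not. The RNA came from EO771, a carcinoma line of the mouse mammary gland (strain C57BL/6), cultured for 48 h with BML-210 at 1.0 µM (2 libraries) or without it (2 libraries). The control cells carry the label untreated and the title EO771 WT, while the treatment protocol speaks of a vehicle control. BML-210 blocks histone deacetylases, the enzymes that take acetyl groups off histones, and no other treatment or gene change is given for either group. Below, the untreated and the BML-210 libraries are those with these labels, and every fold change is that of BML-210 over untreated. The library codes are D for the untreated and V for the BML-210 libraries. The labels do not explain these letters, which could also be read as drug and vehicle, and no gene was targeted whose level would check the labels. An exchange of the groups therefore cannot be told apart from the labelled order, and under it every direction given here would reverse, with 25 members higher and 6 lower. The labels do not say whether the replicates were separate cultures. The p-values therefore set each group difference against the spread between these libraries, which may be technical.

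NRF2, coded by Nfe2l2, is a transcription factor held in the cytoplasm and sent for degradation by KEAP1. When oxidants or electrophiles modify KEAP1, NRF2 is spared, enters the nucleus and, with a small MAF protein, binds antioxidant response elements in genes of glutathione synthesis, thioredoxin recycling and detoxification. Glutathione is a tripeptide that reduces peroxides through glutathione peroxidases and is joined to electrophiles by glutathione S-transferases. Thioredoxin and the peroxiredoxins form a parallel chain, and both chains draw their electrons from NADPH. Carcinoma cells often depend on these systems because their metabolism yields more reactive oxygen.

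More of these genes fell than rose in the BML-210 libraries. Of the 41 tested, 25 were lower and 6 higher at an adjusted p below 0.05 in edgeR's quasi-likelihood test, and 10 did not pass. Over all 14455 tested genes 46.4% were called, 23.5% lower and 22.9% higher, so the lower calls were above that background and the higher calls below it. The members were chosen with earlier results of these data known, so this difference from the background is a description and not a test. The members' median log2 fold change was -0.30, against -0.0025 over all tested genes. The 2 groups of libraries did not overlap for 36 of the 41, against 71.3% of all tested genes. Both BML-210 libraries lay below both untreated ones for 26 of the 41 (36.1% of all tested genes did so) and above them for 10 (35.2%). A fall of 2-fold or more was found for 5 members, namely Mgst3, Gsta4, Blvrb, Srxn1 and Gstt1, and no member rose that much. Without untreated replicate 1, 25 members were lower and 3 higher. All 9 tested transferase and export genes fell, while NRF2 itself and KEAP1 did not pass the test.

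**Figure D1:**
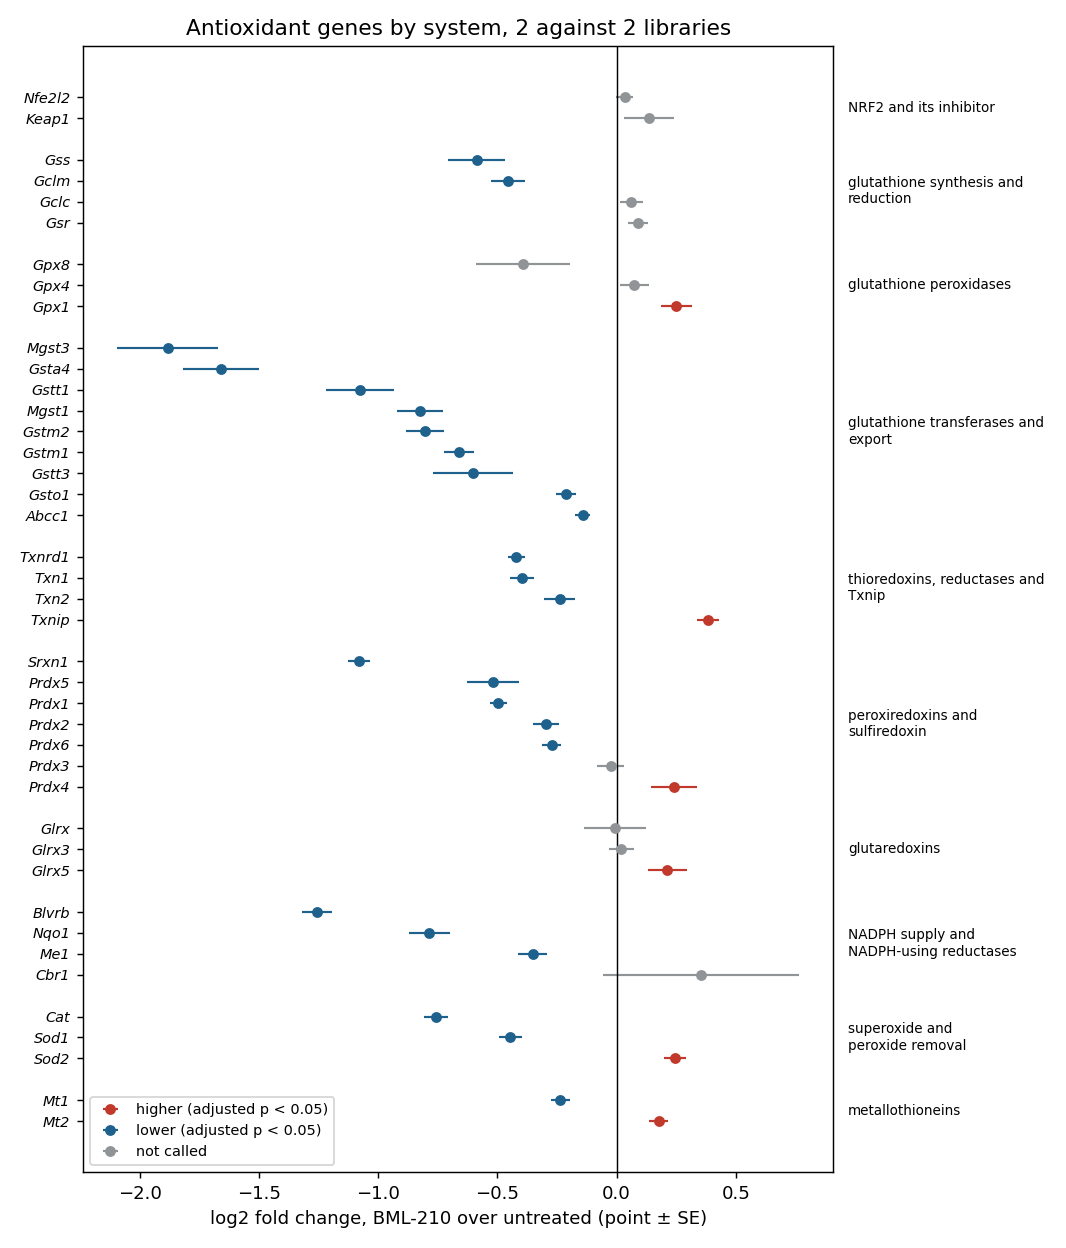
Log2 fold change of the 41 tested antioxidant genes (x axis, BML-210 over untreated, point ± SE, 2 against 2 libraries), grouped by system and coloured by the call at an adjusted p below 0.05. The transferases reach furthest to the left, Mgst3 at -1.88, and the 6 genes called higher lie between 0.18 and 0.38.

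Counts summed to between 13167893 and 16534667 per library. In the labelled mammary carcinoma line the keratin gene Krt8 was present at 43.6 and 49.2 CPM in the untreated and 28.3 and 33.0 CPM in the BML-210 libraries, whereas its partner Krt18 (at most 0.146 CPM) and the epithelial adhesion gene Epcam (at most 0.227 CPM) were near 0. CPM are counts scaled to the library total, and 3 counts equal 0.183 to 0.227 CPM. The sum over 12 macrophage and leukocyte markers was 176 and 179 CPM in the untreated libraries and 43.8 and 43.2 CPM in the BML-210 libraries. That sum was mostly the lysosomal glycoprotein gene Cd68 (159 and 165 CPM in the untreated and 32.1 and 30.0 CPM in the BML-210 libraries). Of the 12, 6 were tested and 2 fell, Cd68 and Adgre1. C1qc was at 0 in every library and Ptprc was between 0.437 and 0.974 CPM. Malat1, a nuclear RNA, took 1.64% and 1.68% of untreated counts and 1.13% of those of each BML-210 library, and mitochondrially encoded genes took 5.05% to 5.57% in all 4. The part of these differences in the antioxidant results was not tested. In bulk RNA, fewer cells that express a gene and less of its RNA per cell cannot be told apart.

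**Figure D2:**
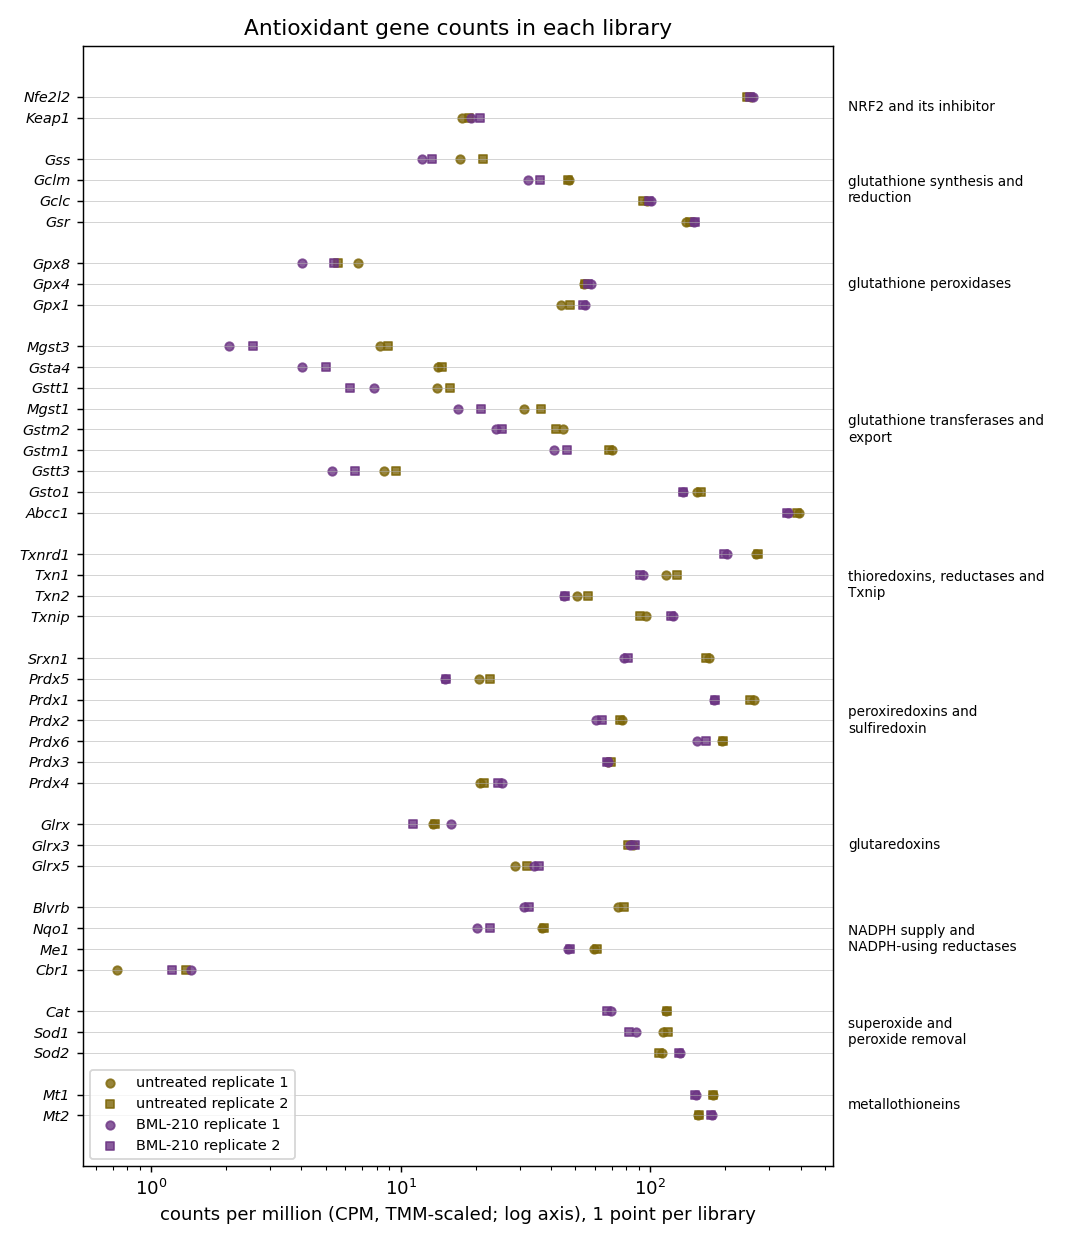
Level in CPM (log axis) of each tested member in each of the 4 libraries, circles for replicate 1 and squares for replicate 2. The groups stand apart for Mgst3, Gsta4, Blvrb and Srxn1 and lie on each other for Nfe2l2, Prdx3 and Glrx3.

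Since many members fell together, their promoters were searched for the core of the antioxidant response element, TGACNNNGC, on both strands, in the RefSeq windows (GRCm38.p6, the assembly of mm10) from 250 bases before to 50 bases after each start. Of the 45 genes, 40 had a window, and Gclc, Gsr, Gsta4, Abcc1 and Prdx6 did not. A match was found for 7 of the 22 lower members with a window (31.8%: Gclm, Mgst1, Txnrd1, Prdx1, Srxn1, Me1 and Sod1), for 1 of the 6 higher (Mt2) and for 1 of 8 not called (Nfe2l2). The untested Gstm5 also had one. The motif occurs by its letters alone in 14.0% of the 27025 genes with a window, so a match is a description and not a binding site. For the 4 genes that fell and whose match lies before the start and outside every annotated exon, the surrounding stretch is given 5′ to 3′ on the plus strand, with the match in capitals. In each of the 4 the capitals read as the reverse complement of the motif.
Gclm, chr3:122245343-122245511: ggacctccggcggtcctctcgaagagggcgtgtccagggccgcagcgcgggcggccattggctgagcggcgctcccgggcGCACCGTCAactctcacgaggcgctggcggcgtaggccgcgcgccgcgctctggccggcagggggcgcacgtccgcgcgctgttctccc
Txnrd1, chr10:82859034-82859178: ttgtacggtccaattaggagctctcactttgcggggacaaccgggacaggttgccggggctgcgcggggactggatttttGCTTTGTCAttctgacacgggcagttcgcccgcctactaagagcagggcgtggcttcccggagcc
Prdx1, chr4:116685386-116685543: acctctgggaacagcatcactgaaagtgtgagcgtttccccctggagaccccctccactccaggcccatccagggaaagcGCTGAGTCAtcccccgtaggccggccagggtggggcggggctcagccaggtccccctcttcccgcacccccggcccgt
Sod1, chr16:90220626-90220753: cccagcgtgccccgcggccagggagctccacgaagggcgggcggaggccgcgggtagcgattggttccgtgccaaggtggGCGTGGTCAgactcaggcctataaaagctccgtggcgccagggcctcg
The match of Gclm ends 126 bases before the start, that of Prdx1 125, that of Txnrd1 84 and that of Sod1 48. For Txnrd1 this start is at 82859206, inside the gene, whose annotated span begins at 82833951. The windows of its other starts, among them the one at the gene's 5′ end, had no match. Which start of Txnrd1 was in use was not tested. These 4 genes code for parts of glutathione synthesis, peroxide removal, thioredoxin recycling and superoxide removal, and their log2 fold changes were -0.45 for Gclm, -0.50 for Prdx1, -0.42 for Txnrd1 and -0.45 for Sod1.

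Neither NRF2 nor its inhibitor was called at the RNA level. Nfe2l2 (ENSMUSG00000015839.6, chromosome 2, 75675513 to 75704641, minus strand, mm10) had 254 and 244 CPM in the untreated libraries and 259 and 251 CPM in the BML-210 libraries. The groups overlapped, with log2 fold change 0.034 ± 0.035 (SE), adjusted p = 0.454. Keap1, which codes for the adaptor that hands NRF2 to a ubiquitin ligase, had 17.6 and 18.7 CPM in the untreated libraries and 19.2 and 20.7 CPM in the BML-210 libraries. It was slightly above in both BML-210 libraries, but the difference did not pass (log2 fold change 0.14 ± 0.11, SE; adjusted p = 0.308). Exons of Keap1 overlap those of Gm16754 on the other strand. RNA levels do not show how much NRF2 protein was in the nucleus.

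Glutathione synthesis was split between its genes. Glutamate-cysteine ligase makes the first bond of glutathione and is built from a catalytic subunit, Gclc, and a modifier subunit, Gclm. Gclc stood at 96.9 and 93.8 CPM in the untreated libraries and 101 and 98.4 CPM in the BML-210 libraries, and its difference did not pass (log2 fold change 0.062 ± 0.048, SE; adjusted p = 0.306). Gclm (ENSMUSG00000028124.15, chromosome 3, 122245557 to 122270732, plus strand, mm10) had 47.2 and 46.6 CPM in the untreated libraries and 32.4 and 36.0 CPM in the BML-210 libraries. Both BML-210 libraries were below both untreated ones, log2 fold change -0.45 ± 0.072 (SE), adjusted p = 3.30e-07. Its exons overlap those of Gm17494 and Gm6061. Per exonic length, the level of Gclc was 3.43 and 3.36 times that of Gclm in the untreated libraries and 5.20 and 4.56 times in the BML-210 libraries. Glutathione synthetase, Gss, which adds the last amino acid, fell from 17.3 and 21.3 to 12.2 and 13.3 CPM (log2 fold change -0.59 ± 0.12, SE; adjusted p = 4.05e-05). Exons of Gss overlap those of Acss2 on the other strand, and the strand setting of the counting was not given in the sources used here. Glutathione reductase, Gsr, which returns oxidised glutathione to its reduced form, had 138 and 144 CPM in the untreated libraries and 150.3 and 150.5 CPM in the BML-210 libraries. It did not pass (log2 fold change 0.091 ± 0.042, SE; adjusted p = 0.0688) but was called higher with library-size scaling alone (adjusted p = 0.0319) and without untreated replicate 2 (0.0377), over a range of 0.0319 to 0.399.

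Of the 3 tested genes of the glutathione peroxidase family, 1 rose and 2 did not pass, against 46.4% called over all tested genes. Gpx1, the cytosolic glutathione peroxidase, rose, with 43.7 and 47.6 CPM in the untreated libraries and 54.5 and 53.9 CPM in the BML-210 libraries and log2 fold change 0.25 ± 0.065 (SE), adjusted p = 0.00101. Its call ended without untreated replicate 1 (adjusted p = 0.0609, over a range of 4.38e-04 to 0.0609). Gpx4, which reduces lipid peroxides in membranes, had 54.0 and 54.8 CPM in the untreated libraries and 57.9 and 56.5 CPM in the BML-210 libraries and did not pass (log2 fold change 0.074 ± 0.061, SE; adjusted p = 0.337). A share of 25.2% of its 100-base stretches also occurs in other transcripts, such as that of Gpx4-ps2. Gpx8 of the endoplasmic reticulum had 6.76 and 5.61 CPM in the untreated libraries and 4.01 and 5.42 CPM in the BML-210 libraries. It did not pass (log2 fold change -0.39 ± 0.20, SE; adjusted p = 0.0979). Leaving out BML-210 replicate 2 called it lower (adjusted p = 0.0377, over a range of 0.0377 to 0.542). Gpx7 had 1 count in each untreated library and 0 in the others.

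The 2 largest falls of the set were those of the glutathione transferase genes Mgst3 and Gsta4. Transferases join glutathione to electrophiles. The level per exonic length, summed over these genes and Abcc1, was 222 and 226 CPM per kilobase in the untreated and 152 and 159 in the BML-210 libraries. Mgst3 (ENSMUSG00000026688.5, chromosome 1, 167371966 to 167393841, minus strand, mm10) codes for a membrane-bound transferase and peroxidase of the microsomes. It had 8.28 and 8.89 CPM in the untreated libraries and 2.04 and 2.57 CPM in the BML-210 libraries. The highest BML-210 library was well below the lowest untreated one, log2 fold change -1.88 ± 0.21 (SE), adjusted p = 3.44e-11. Gsta4 (ENSMUSG00000032348.6, chromosome 9, 78182774 to 78209349, plus strand, mm10), whose enzyme clears the lipid peroxidation product 4-hydroxynonenal, had 14.1 and 14.6 CPM in the untreated libraries and 4.01 and 4.995 CPM in the BML-210 libraries. The groups did not overlap, log2 fold change -1.66 ± 0.16 (SE), adjusted p = 2.21e-13. The theta-class gene Gstt1 went from 14.0 and 15.7 to 7.80 and 6.28 CPM (log2 fold change -1.08 ± 0.14, SE; adjusted p = 5.77e-09).

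Mgst1, another microsomal transferase, had 31.2 and 36.3 CPM in the untreated libraries and 16.9 and 21.0 CPM in the BML-210 libraries, and its log2 fold change was -0.82. The mu-class neighbours Gstm1 and Gstm2 lie on chromosome 3 and fell side by side. Gstm1 went from 69.9 and 68.2 to 41.0 and 46.2 CPM (log2 fold change -0.66 ± 0.063, SE; adjusted p = 1.21e-13). Gstm2 went from 44.5 and 41.9 to 24.1 and 25.5 CPM (log2 fold change -0.80 ± 0.079, SE; adjusted p = 5.30e-13). Exact sharing of 100-base stretches with other genes was 5.86% for Gstm1 and 0.36% for Gstm2. This counts identical stretches only, so it does not show how shorter reads or reads with mismatches were assigned. Gstm5 of the same class had no count in any library, which allows at most about 3 counts in each. Gstt3, the theta-class neighbour of Gstt1, fell from 8.58 and 9.54 to 5.30 and 6.57 CPM (log2 fold change -0.60 ± 0.17, SE; adjusted p = 0.00229), but its call ended with DESeq2 (adjusted p = 0.0567) and when BML-210 replicate 1 was left out (0.0609), over a range of 0.00108 to 0.0609. Exons of Gstt3 overlap those of Gm20441 on the same strand, and 10.8% of its 100-base stretches also occur in Gm20441. The omega-class gene Gsto1, which reduces dehydroascorbate, fell less, from 154 and 159.5 to 135 and 135 CPM (log2 fold change -0.21). Abcc1, the pump that exports glutathione conjugates, fell least, from 394 and 386 to 355 and 353 CPM (log2 fold change -0.14 ± 0.031, SE; adjusted p = 1.19e-04).

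The pi-class gene Gstp1 had 0, 0, 0 and 1 count in the 4 libraries and cannot be read as silent. The table lists a copy of it with the same name and exonic length on the scaffold JH792830.1, also with 0 counts. Txnrd2, the mitochondrial thioredoxin reductase gene, had 0, 2, 0 and 0 counts and likewise has a copy on KB469741.2 with 0. Among protein-coding genes on the chromosomes, 206 of the 228 with such a copy had 3 counts or fewer over all libraries (90.4%), against 30.7% of the 21662 without one. The treatment of reads that fit several places was not given in the sources used here, so no level is given for these 2 genes.

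Thioredoxin and its reductase fell, and Txnip, whose protein inhibits thioredoxin, rose. Txn1, the cytosolic thioredoxin, had 116 and 128 CPM in the untreated libraries and 93.4 and 91.1 CPM in the BML-210 libraries. Each BML-210 library was lower than each untreated one, log2 fold change -0.40 ± 0.049 (SE), adjusted p = 4.82e-10. Its reductase Txnrd1 (ENSMUSG00000020250.10, chromosome 10, 82833951 to 82897712, plus strand, mm10), which passes electrons from NADPH, had 265 and 271 CPM in the untreated libraries and 203 and 197 CPM in the BML-210 libraries. The fall was of the same order, log2 fold change -0.42 ± 0.036 (SE), adjusted p = 2.35e-15. The mitochondrial thioredoxin Txn2 fell from 50.8 and 56.3 to 45.04 and 45.5 CPM (log2 fold change -0.24 ± 0.066, SE; adjusted p = 0.00195), a call that ended without untreated replicate 2 (adjusted p = 0.0822) and with DESeq2 (0.0630), over a range of 4.06e-04 to 0.0822. Txnip (ENSMUSG00000038393.14, chromosome 3, 96557957 to 96561883, plus strand, mm10) codes for the thioredoxin-interacting protein. It had 95.7 and 91.3 CPM in the untreated libraries and 123 and 121 CPM in the BML-210 libraries, the largest rise among the members called higher (log2 fold change 0.38 ± 0.047, SE; adjusted p = 4.54e-10). Its exons overlap those of Gm15441 on the other strand. Per exonic length the level of Txnip was 0.278 and 0.241 times that of Txn1 in the untreated libraries and 0.444 and 0.447 times in the BML-210 libraries.

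Peroxiredoxins remove hydrogen peroxide, mostly with electrons from thioredoxin, and 4 of the 6 fell, against 23.5% of all tested genes. Prdx1 of the cytosol had 259 and 251 CPM in the untreated libraries and 180.2 and 182 CPM in the BML-210 libraries (log2 fold change -0.50 ± 0.036, SE; adjusted p = 7.96e-18). Prdx5, found in mitochondria and peroxisomes, fell from 20.6 and 22.8 to 15.1 and 15.1 CPM (log2 fold change -0.52 ± 0.11, SE; adjusted p = 6.17e-05). Prdx2 fell from 76.9 and 75.9 to 60.6 and 63.9 CPM (log2 fold change -0.30), and Prdx6, which also has phospholipase activity, from 194 and 195 to 154 and 168 CPM (log2 fold change -0.27). Exons of Prdx2 overlap those of Junb and Rnaseh2a, and exons of Prdx5 those of Trmt112, all on the other strand. Prdx3, the mitochondrial form, had 67.7 and 69.8 CPM in the untreated libraries and 67.9 and 67.1 CPM in the BML-210 libraries, with overlapping groups (log2 fold change -0.025 ± 0.056, SE; adjusted p = 0.749). Prdx4, the secretory pathway form, was called higher, from 20.8 and 21.6 to 25.4 and 24.6 CPM (log2 fold change 0.24 ± 0.10, SE; adjusted p = 0.0325). That call ended without any 1 of the 4 libraries (adjusted p = 0.0552 to 0.153), with upper-quartile scaling (0.0621), without a filter on low counts (0.0570) and with DESeq2 (0.206), over a range of 0.0221 to 0.206.

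Srxn1 (ENSMUSG00000032802.8, chromosome 2, 152105516 to 152111376, plus strand, mm10) codes for sulfiredoxin, which repairs overoxidised peroxiredoxins. It had 171 and 167 CPM in the untreated libraries and 78.6 and 81.1 CPM in the BML-210 libraries. The groups stood far apart, log2 fold change -1.08 ± 0.045 (SE), adjusted p = 1.18e-28, a fall of 2.12-fold that was larger than that of any peroxiredoxin gene. Per exonic length the level of Prdx1 was 1.40 times that of Srxn1 in each untreated library and 2.13 and 2.08 times in the BML-210 libraries. The level summed over peroxiredoxins and sulfiredoxin was 277 and 275 CPM per kilobase in the untreated and 204 and 208 in the BML-210 libraries.

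Glutaredoxins, which use glutathione to reduce protein disulfides or to carry iron-sulfur clusters, gave 1 call among 3. Over all tested genes 46.4% were called, so this count is not above the background. Glrx had 13.5 and 13.7 CPM in the untreated libraries and 15.9 and 11.2 CPM in the BML-210 libraries, and its 2 BML-210 libraries lay on either side of the untreated ones (log2 fold change -0.0067 ± 0.13, SE; adjusted p = 0.973). Glrx3 had 85.2 and 81.7 CPM in the untreated libraries and 83.0 and 86.5 CPM in the BML-210 libraries with overlapping groups (log2 fold change 0.021 ± 0.052, SE; adjusted p = 0.78). Of the 100-base stretches of Glrx3, 9.66% also occur in Gm12669. Glrx5, a mitochondrial iron-sulfur carrier, was called higher, from 28.7 and 32.0 to 34.3 and 35.9 CPM (log2 fold change 0.21 ± 0.081, SE; adjusted p = 0.0255). That call ended without untreated replicate 1 (adjusted p = 0.322), without BML-210 replicate 2 (0.166), with upper-quartile scaling (0.0554) and with DESeq2 (0.201), over a range of 0.0103 to 0.322.

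Of Me1, Nqo1, Blvrb and Cbr1, which make or spend NADPH as do Txnrd1 and Gsr above, 3 fell and 1 did not pass. Over all tested genes 23.5% fell. Blvrb (ENSMUSG00000040466.16, chromosome 7, 27447978 to 27466144, plus strand, mm10), biliverdin reductase B, an NADPH-dependent flavin reductase, had 74.5 and 78.3 CPM in the untreated libraries and 31.2 and 32.6 CPM in the BML-210 libraries. Its level in the BML-210 libraries was 2.39-fold lower, log2 fold change -1.26 ± 0.065 (SE), adjusted p = 1.56e-24. Nqo1 (ENSMUSG00000003849.8, chromosome 8, 107388225 to 107403206, minus strand, mm10), the quinone reductase often used to read out NRF2, had 36.8 and 37.5 CPM in the untreated libraries and 20.2 and 22.8 CPM in the BML-210 libraries. Both treated libraries were well below, log2 fold change -0.79 ± 0.087 (SE), adjusted p = 1.93e-11. Malic enzyme, Me1, a cytosolic source of NADPH, fell from 59.5 and 61.2 to 46.9 and 47.5 CPM (log2 fold change -0.35 ± 0.062, SE; adjusted p = 2.70e-06), and 12.3% of its 100-base stretches also occur in transcripts of Gm7049 and Gm7329. Its exons overlap those of A330041J22Rik on the other strand. The carbonyl reductase gene Cbr1 was near the limit of detection at 0.73 and 1.38 CPM in the untreated libraries and 1.44 and 1.21 CPM in the BML-210 libraries and did not pass (log2 fold change 0.35 ± 0.41, SE; adjusted p = 0.512).

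The dismutases went in opposite directions. Sod1, the copper-zinc enzyme of the cytosol, fell, with 112 and 118 CPM in the untreated libraries and 87.4 and 81.8 CPM in the BML-210 libraries and log2 fold change -0.45 ± 0.049 (SE), adjusted p = 2.06e-11. Sod2, the manganese enzyme of mitochondria, rose, with 112 and 109 CPM in the untreated libraries and 131 and 129.7 CPM in the BML-210 libraries and log2 fold change 0.25 ± 0.045 (SE), adjusted p = 5.52e-06. Per exonic length the level of Sod2 was 0.394 and 0.364 times that of Sod1 in the untreated libraries and 0.596 and 0.629 times in the BML-210 libraries. Transcripts of Sod2 share 12.8% of their 100-base stretches with other genes. Catalase, Cat, which breaks down hydrogen peroxide in peroxisomes, had 115 and 117 CPM in the untreated libraries and 69.9 and 67.3 CPM in the BML-210 libraries. The groups were clearly apart, log2 fold change -0.76 ± 0.050 (SE), adjusted p = 9.52e-20.

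The metallothionein genes Mt1 and Mt2 code for small cysteine-rich proteins that bind zinc and copper and lie 5.51 kb apart on the same strand of chromosome 8. They also moved in opposite directions, by small amounts. Mt1 (ENSMUSG00000031765.8, chromosome 8, 94179082 to 94180327, plus strand, mm10) had 179 and 178 CPM in the untreated libraries and 152 and 151 CPM in the BML-210 libraries (log2 fold change -0.24 ± 0.040, SE; adjusted p = 1.02e-06). Mt2 (ENSMUSG00000031762.7, chromosome 8, 94172664 to 94173568, plus strand, mm10) had 155 and 156 CPM in the untreated libraries and 177 and 175 CPM in the BML-210 libraries (log2 fold change 0.18 ± 0.040, SE; adjusted p = 1.67e-04), and its exons overlap those of Gm45774. The libraries of each group were close together for both genes. Per exonic length the level of Mt2 was 1.84 and 1.85 times that of Mt1 in the untreated libraries and 2.46 and 2.45 times in the BML-210 libraries, while their summed level was 407 and 408 CPM per kilobase in the untreated and 423 and 418 in the BML-210 libraries.

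**Figure D3:**
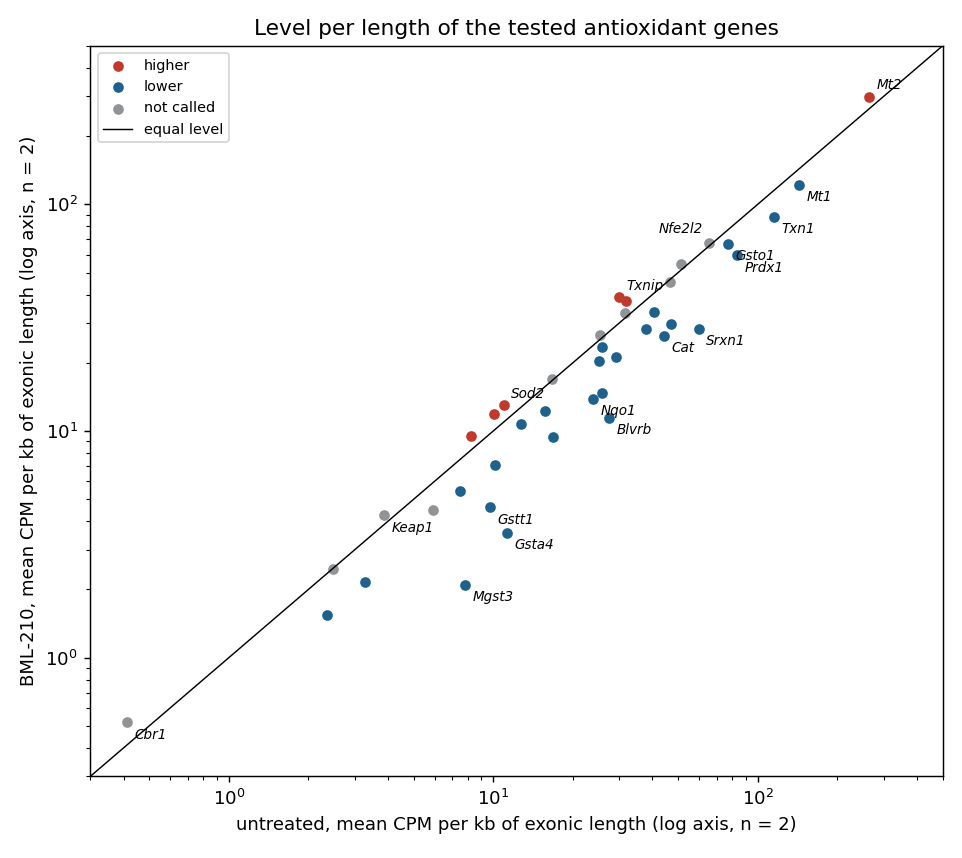
Mean level per exonic length (CPM per kilobase, log axes, n = 2) of the tested members in the untreated (x) and BML-210 libraries (y), with the line of equal level. Mt2 is highest in both groups at 264 and 298.7 CPM per kilobase, and Mgst3, Gsta4, Gstt1, Blvrb and Srxn1 lie furthest below the line.

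Ranked by CPM per kilobase of exonic length in the untreated libraries, Mt2 (264), Mt1 (143), Txn1 (116) and Prdx1 (83.9) led, followed by Gsto1 (77.5), Nfe2l2 (65.6) and Srxn1 (59.9). Among these 7, the untreated libraries of no neighbours in the order overlapped, as for Prdx1 (85.2 and 82.6) and Gsto1 (76.1 and 78.9). Further down, Gstm1 (47.5 and 46.3) could not be told from Prdx3 (45.8 and 47.2), nor Gpx1 (30.3 and 33.1) from Gpx4 (31.3 and 31.8). In the BML-210 libraries Srxn1 went from rank 7 to 14, Blvrb from 18 to 27 and Gsta4 from 28 to 36 of 41, and Txnip went from rank 16 to 9. The BML-210 values of Srxn1 (27.86 and 28.75) overlapped those of its neighbours Gstm1 and Txnrd1. Those of Blvrb (11.21 and 11.72) overlapped those of Prdx4, so the exact BML-210 ranks of Srxn1 and Blvrb are not resolved. Exonic length sums all annotated exons of a gene, so genes with long rare exons come out low. The sum over the members was 1498 and 1521 CPM per kilobase in the untreated and 1310 and 1312 in the BML-210 libraries.

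Of 103 other genes of these pathways, 85 were tested, of which 33 fell, 19 rose and 33 did not pass (median log2 fold change -0.09). The counts of these genes and of each list among them stand against 23.5% lower and 22.9% higher over all tested genes, and the count of 19 higher is near that background. Of the genes listed here as other targets of NRF2, 11 of 16 tested fell and the other 5 did not pass (median log2 fold change -0.55). They include the ferritin genes Fth1 (log2 fold change -0.87) and Ftl1 (-0.82), which store iron and have pseudogenes that can share their reads, the aldo-keto reductase gene Akr1b8 (-0.65) and the heme oxygenase gene Hmox1 (181 and 184 CPM in the untreated and 149.7 and 142 CPM in the BML-210 libraries, log2 fold change -0.32). Some NRF2 targets stand in the other lists and are not counted among these 16. Of those, Slc7a11 rose and G6pdx and Taldo1 fell, as given below. Of 17 other glutathione genes, 7 fell and 4 rose. Slc7a11, which imports cystine for glutathione synthesis, rose from 32.2 and 34.4 to 61.7 and 63.3 CPM (log2 fold change 0.91), whereas the esterase gene Esd (-0.79) and the glyoxalase gene Glo1 (-0.52) fell; both enzymes work on glutathione adducts.

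Of 15 other genes of NADPH supply, 7 rose and 5 fell. G6pdx, the entry enzyme of the pentose phosphate pathway, fell from 458 and 445 to 367 and 386 CPM (log2 fold change -0.26), and Taldo1 of the same pathway fell (-0.61). Aldh1l2, a folate enzyme of mitochondria that makes NADPH, rose from 228 and 221 to 302 and 299 CPM (log2 fold change 0.42). Of 12 regulators and partners of NRF2, 4 fell and 3 rose. The repressor of the same DNA elements, Bach1, fell from 153 and 149 to 115 and 119 CPM (log2 fold change -0.37), as did Dpp3 (-0.44), whose protein competes for KEAP1. The kinase gene Gsk3b, whose product marks NRF2 for degradation, rose (0.25).

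Of 12 other thioredoxin-fold and methionine sulfoxide genes, 4 fell, among them the selenoprotein gene Msrb1 (-0.95) and the nucleoredoxin gene Nxn (-0.44), and 2 rose, among them the sestrin gene Sesn2 (0.44). Of 5 tested genes of superoxide and metal defence, the extracellular dismutase gene Sod3 (-0.67) and Park7 (-0.23) fell and the metal importer gene Slc39a14 (0.24) rose. Of 8 genes of selenoprotein synthesis, on which Gpx1, Gpx4 and Txnrd1 depend, Sephs1 (0.48) and Sepsecs (0.40) rose and 6 did not pass, so the share called higher was near the background.

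**Figure D4:**
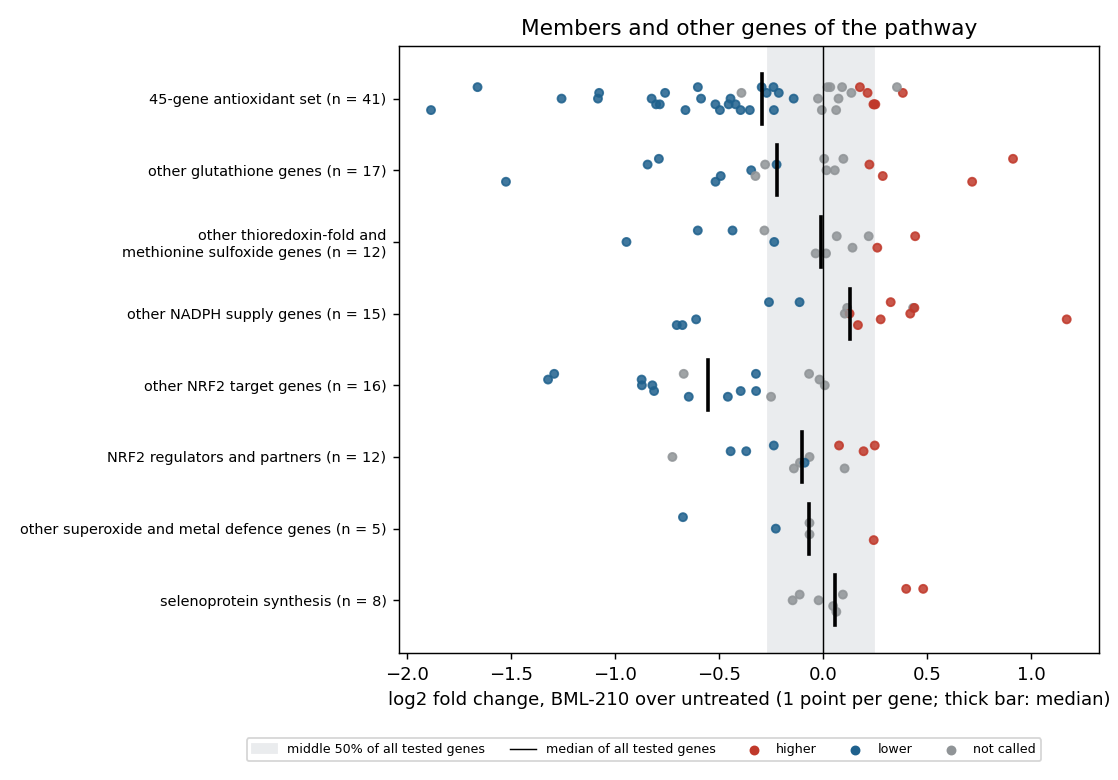
Log2 fold change (x axis, BML-210 over untreated) of each tested member and of the other pathway genes by list, 1 point per gene coloured by its call, with the list's median as a thick bar. The grey band holds the middle 50% of all tested genes, from -0.27 to 0.24, and describes single genes, not medians. The median of the members is -0.30 and that of the list of other NRF2 targets -0.55, which leaves out targets placed in other lists.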

How the data were processed

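Total RNA of 4 EO771 samples was sequenced, 2 per group. The authors deposited 1 table of raw read counts per gene, as whole numbers. Tools named in the submitters' processing notes are STAR 2.5 (an aligner), featureCounts of Subread 1.5.1 (a counter) and edgeR 3.20.8, with the build mm10. Settings for strand, multi-mapping and overlapping genes were not given in the sources used here. Of the 41 tested members, 9 have an exon that overlaps an exon of another gene.

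The test used edgeR 4.0.16 under R 4.3.3. filterByExpr left 14455 of 56350 genes, which were scaled by TMM. They were compared with the quasi-likelihood test (robust) on the group alone, with 2 residual degrees of freedom for each gene. That test draws each gene's spread towards the spread over all tested genes. Benjamini-Hochberg adjustment covered the 14455 genes, with calls below 0.05. A standard error is the log2 fold change over the square root of F. The steps were also run on counts simulated from the spread of these libraries, with far fewer changed genes than were called here. That run therefore does not check the calls at the share of genes called here. Replicate libraries were further apart than sampling noise, with chi-square over degrees of freedom at 2.70 and 1.76, and each library counts as 1 sample. Floors of 3 counts cover counting error only, while the standard errors also take in the spread between these libraries.

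The members and the lists of other genes were chosen with earlier results of these data known, and get no test as lists. Every member is described or counted. Of each list of other pathway genes, up to 3 called genes of at least 5 CPM with the smallest adjusted p are named, and Hmox1, Slc7a11, G6pdx, Fth1 and Ftl1 in any case. Epithelial, macrophage, fibroblast and endothelial markers were read as lists. Summed CPM of the 8 epithelial markers were 46.2 and 51.4 in the untreated and 29.9 and 34.5 in the BML-210 libraries. The fibroblast sums were 230.2 and 238 in the untreated and 198 and 204 in the BML-210 libraries. Of the 7 fibroblast markers, Pdgfra fell (log2 fold change -0.68), Pdgfrb rose (0.57), 1 did not pass and 4 were not tested. The endothelial sums were 9.13 and 8.45 in the untreated and 10.4 and 9.42 in the BML-210 libraries. Alternatives were RLE, upper-quartile or library-size scaling, a filter at a mean of 1 CPM or none, a replicate block, each library left out, genes over 1% of a library left out, DESeq2 1.42.0 and limma-voom (limma 3.58.1).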

Additional observations from a re-analysis of the deposited data

How the results depend on the processing

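Over 13 alternatives, 23 of the 25 members called lower and 3 of the 6 called higher (Txnip, Sod2 and Mt2) kept their call in every one, and no called member changed sign. The exceptions are Gstt3, Txn2, Gpx1, Prdx4 and Glrx5. With single libraries left out, 24 to 26 members were lower, 3 to 6 higher (3 without untreated replicate 1), and their median log2 fold change ran from -0.34 (without BML-210 replicate 2) to -0.26 (without BML-210 replicate 1). DESeq2 called 23 members lower and 4 higher, and 2130 lower and 2205 higher of all genes. Upper-quartile scaling gave 25 and 4, and shifted all genes by -0.029 on the log2 scale. Library size only shifted all genes by 0.016. Some members that were not called changed sign without passing. Glrx went to 0.0092 with library size only. With libraries left out it ran from -0.28 to 0.23 (0.0045 without untreated replicate 2, 0.23 without BML-210 replicate 2). Glrx3 went to -0.0085 with upper-quartile scaling, to -0.0086 without untreated replicate 2 and to -0.010 without BML-210 replicate 2 (at most 0.050 with a library left out). Cbr1, at 0.35 with all libraries, went to -0.067 without untreated replicate 1 (0.85 without untreated replicate 2). For these the cause was not tested. With the replicate block, 25 members were lower and 6 higher, and 3462 and 3385 of all genes. The replicates share only a number: the differences between replicates 1 and 2 correlated at 0.0056 between the groups over 10130 genes. Depth limits Cbr1, Gpx7 and Gstm5.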
